A study of Oryza sativa with 24 samples.

Results

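The 200 probe sets described here gave a high signal in bicellular pollen and in immature tricellular pollen and a lower one before, after and outside those stages. They were selected on the measured values of these arrays. For each of 57258 probe sets the mean of log2(signal + 50) was taken per tissue, and the score was the lower of the bicellular and tricellular means minus the highest mean of the other 6 tissues. The 200 highest scores of 57258 were kept. How far bicellular and tricellular pollen stand above the rest is therefore how the members were chosen and is given as description, without a test.

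RNA of Oryza sativa ssp. japonica was hybridised to 24 Affymetrix rice arrays, 3 arrays for each of 8 tissues, and each probe set has a signal intensity on each array. The study followed transcription from the microspore to the germinating grain and set it beside vegetative tissue. The 5 pollen samples were uninucleate microspores released from the tetrad (UNMs), bicellular pollen (BCP), immature tricellular pollen that had not been shed (TCP), mature pollen grains shaken from flowering panicles after anther dehiscence (MPGs), and grains germinated in a sucrose medium for 10 min at 30°C (GPGs). The other 3 were callus of 1 month on a medium with 2 mg/l of the auxin 2,4-D, leaf, and seedling root of 2 weeks. The label gives the leaf as flag leaf at 110 to 120 days and the study's methods give it as seedling leaf. The BCP label covers grains on both sides of pollen mitosis, and the study's nuclear staining found the BCP fraction to be the least pure. BCP was taken from a Percoll step gradient, and TCP was not: its label gives collection by centrifugation and the study's methods give filtration through nylon mesh. For these tissues isolation and stage cannot be told apart. Each sample was a bulk of many grains, in which fewer cells with a transcript and less transcript per cell cannot be told apart.

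In rice an asymmetric division turns the microspore into bicellular pollen, in which the vegetative cell encloses a smaller generative cell. Division of the latter gives tricellular pollen with a sperm pair. Between these divisions and dehiscence the grain fills with starch, lays down its inner wall and loads ions and sugars before it dries. Transcripts of this interval can be lost by the time the grain is shed, whereas the mature grain stores others for tube growth.

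In UNMs the median of the members was 9.67 on the log2(signal + 50) scale. It was 12.37 in BCP and 12.56 in TCP, 9.21 in MPGs and 8.67 in GPGs, and between 6.82 and 6.92 in callus, leaf and root. Taken member by member, the median difference was a 5.94-fold rise from UNMs to BCP and an 8.65-fold fall from TCP to MPGs. The fall after TCP was larger than the rise before BCP for 129 of the 200. For 199 members all 6 BCP and TCP arrays lay above all 18 others, and for 160 the gap between these arrays was at least 2-fold. The highest of the other tissues was UNMs for 95 members, MPGs for 56, GPGs for 20, root for 14, leaf for 9 and callus for 6. In the 9 callus, leaf and root arrays 77 members (38.5%) stayed under a signal of 100, against 40.4% of all probe sets.

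**Figure D1:**
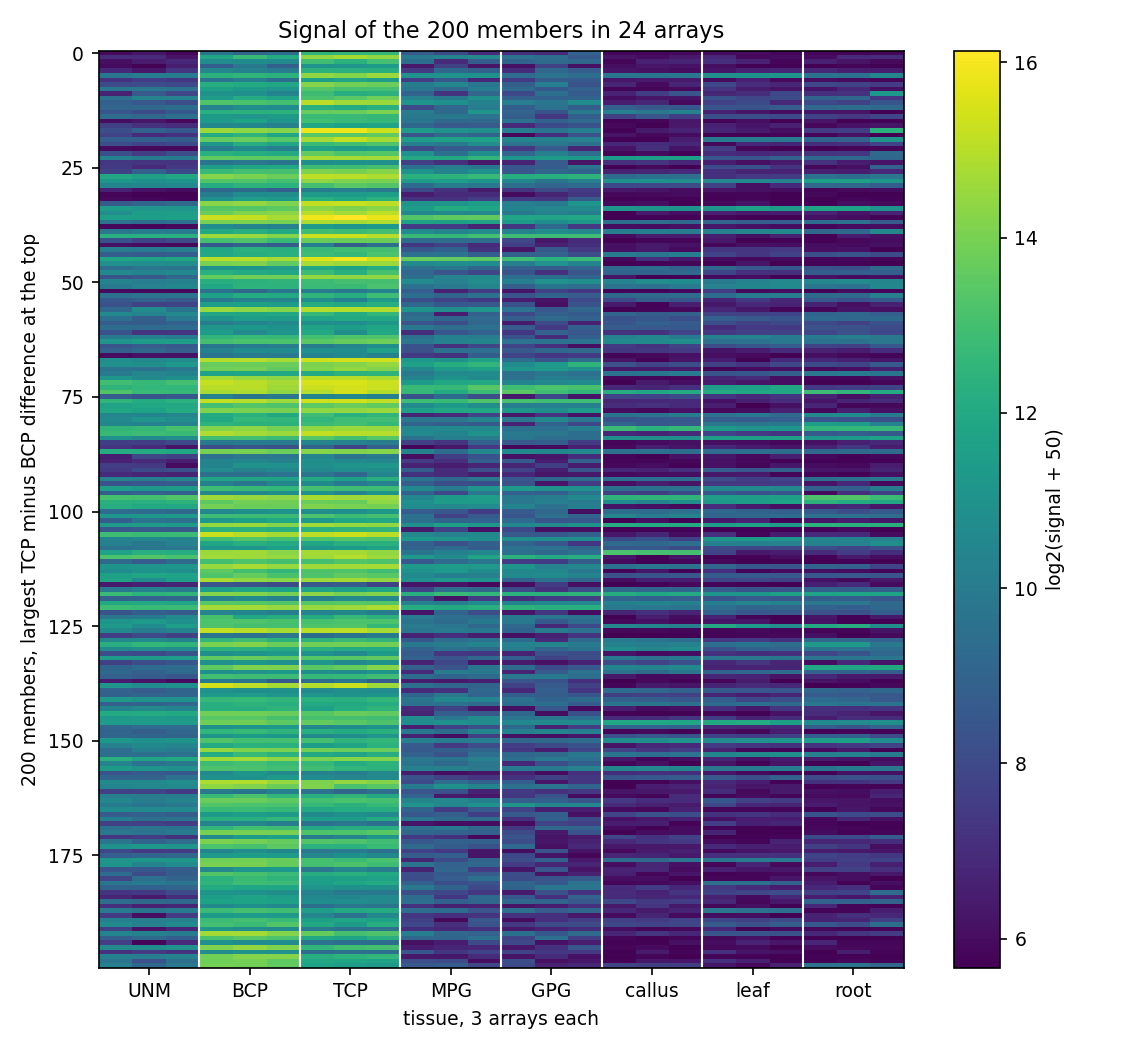
Each row is 1 of the 200 members and each column 1 of the 24 arrays, coloured by log2(signal + 50), with the largest TCP minus BCP difference at the top. The 6 BCP and TCP columns are the bright ones because the members were selected for it, and the member median is 12.37 in BCP and 12.56 in TCP against 9.67 in UNMs and 9.21 in MPGs.

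The scores ran from 4.60 down to 1.32, with a median of 1.82, a 3.53-fold excess over the highest other tissue. The cut fell on a slope without a step. The last 5 inside were a probe set with no RefSeq gene (score 1.34), LOC4337057, LOC4327996, LOC_Os12g31820, a phosphoserine phosphatase homolog, and LOC4343303 with a score of 1.32. Just outside, LOC4348392 had 1.31, LOC4341252 1.30, LOC4341650 1.30, a probe set with no RefSeq gene 1.29 and LOC4339361 1.29. A score above 1 was reached by 339 probe sets and one above 0 by 1822.

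Of the members, 134 matched a RefSeq gene, of which there were 126, and 66 matched none. A role could be given to 64 members (56 genes), 21 from RefSeq, 23 from the rice locus descriptions and 20 from an Arabidopsis homolog, both of the latter as listed in the study's supplementary tables. No role was found for 136. The highest score belonged to one of these, LOC4334658. Its signals were 1542, 1022 and 1244 in the 3 UNM arrays, 37373, 33116 and 26969 in BCP, 33569, 34542 and 27283 in TCP, 818, 1004 and 899 in MPGs and 477, 1017 and 708 in GPGs. None of the callus, leaf or root arrays exceeded 26.2. The BCP and TCP arrays overlapped, and UNMs, the nearest tissue, stood 24.3-fold below the lower of both.

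A pair of technical readings bears on these values. Every array had been scaled to a common mean, but bacterial and phage hybridisation controls, which are added in equal amount, had a mean level (over arrays, of the geometric mean of their probe sets) of 20016 on the MPG arrays and 21452 on the GPG arrays, against 3394 on UNM, 3914 on BCP and 5865 on TCP arrays. The poly-A controls averaged 5832 and 2477 against 555, 580 and 825. They varied within a tissue, with 1077, 2221 and 14199 on the 3 MPG arrays, 329 to 912 on BCP and 429 to 1182 on TCP arrays. Scaling to them therefore also alters the spread within a tissue, and its part in the counts of calls was not tested. When the arrays were rescaled to the hybridisation controls 89 of the 200 members stayed among the 200 highest scores, with the poly-A controls 107, with equal medians 139 and with quantile normalization 163. All 200 kept a score above 0 under each of these 4 scalings, and 82 stayed among the highest 200 under all of them. Marker genes for other cells were read as summed signals. The 8 tapetum and exine probe sets ranged from 16085 to 17800 in UNMs, 1523 to 2058 in BCP and 447 to 699 in TCP. BCP was above TCP for 5 of the 8, with 3 called higher in BCP and 0 in TCP by the test below. RTS, a defining tapetum gene, had a score of -7.15. Its means were 12695 in UNMs, 1107 in BCP and 41.2 in TCP, so RTS made up most of the sum in UNMs and BCP. The 6 probe sets of the list for microspores and dividing cells, cyclins B and PCNA, summed to 14350 to 16071 in UNMs, 5141 to 5766 in BCP and 2317 to 2617 in TCP, with 1 of the 6 called higher in BCP. The 7 for green tissue summed to at most 683 in BCP and 1198 in TCP against 78867 to 104575 in leaf, with no call. The 4 late vegetative cell probe sets rose from 37345 to 47675 in BCP to 165088 to 226808 in TCP, and 4 of 4 passed the test below. No marker of these 4 lists was a member, and the part that other cells play in the members' values was not tested.

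Which of the members leaned to 1 stage was asked by comparing TCP with BCP. The rule did not score this difference, but it needed both means to be high, which bears on how far a member could lean, so the shares of members are set beside those of all probe sets as description only. The comparison was made with limma over 47589 probe sets. A call needed a Benjamini-Hochberg adjusted p under 0.05 and at least 2-fold. All 200 members passed the filter on low signals. Of them 25 (12.5%) were higher in TCP, against 10.2% of all probe sets tested, and 14 (7.0%) were higher in BCP, against 12.9%. The other 161 passed in neither direction. The median difference was 0.18 for the members and 0.14 for all probe sets, and 78.5% of the members against 73.7% of all lay within 2-fold. For all 25 and all 14 the 3 BCP arrays and the 3 TCP arrays did not overlap, which the call itself makes likely. It was also so for 91 of the 161 without a call. The share over all probe sets was not taken, so these counts are no trait of the members.

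The differences of the TCP-leaning members ran from 2.01-fold to 8.77-fold, and those of the BCP-leaning members from 2.01-fold to 4.91-fold. The balance between both directions depended on the scaling, which also moved the median of all probe sets from 0.14 to -0.08 with equal medians, -0.20 with the hybridisation controls and -0.16 with the poly-A controls. With quantile normalization 23 members were higher in TCP and 20 in BCP, with equal medians 14 and 33, with the hybridisation controls 10 and 46, and with the poly-A controls 3 and 12. No TCP-leaning or BCP-leaning member changed sign under these 4 scalings. Of the 25 members called higher in TCP, 23 kept the call with quantile normalization, 14 with equal medians, 10 with the hybridisation controls and 3 with the poly-A controls, and of the 14 called higher in BCP 9, 14, 14 and 11 did.

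A caution applies to the named members. The study's table of stage-enriched and stage-downregulated transcripts was drawn up on these same arrays. A shortened copy of it, with 817 rows, was used here, so absence from the copy does not show absence from the full table. Of the 22 members listed in the copy 20 were called, against 19 of the other 178. Of the 19 named members with a call 17 were in the copy, and only 2 of the 45 named members absent from it were called. The counts by function below are therefore no independent evidence on which functions lean to a stage.

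**Figure D2:**
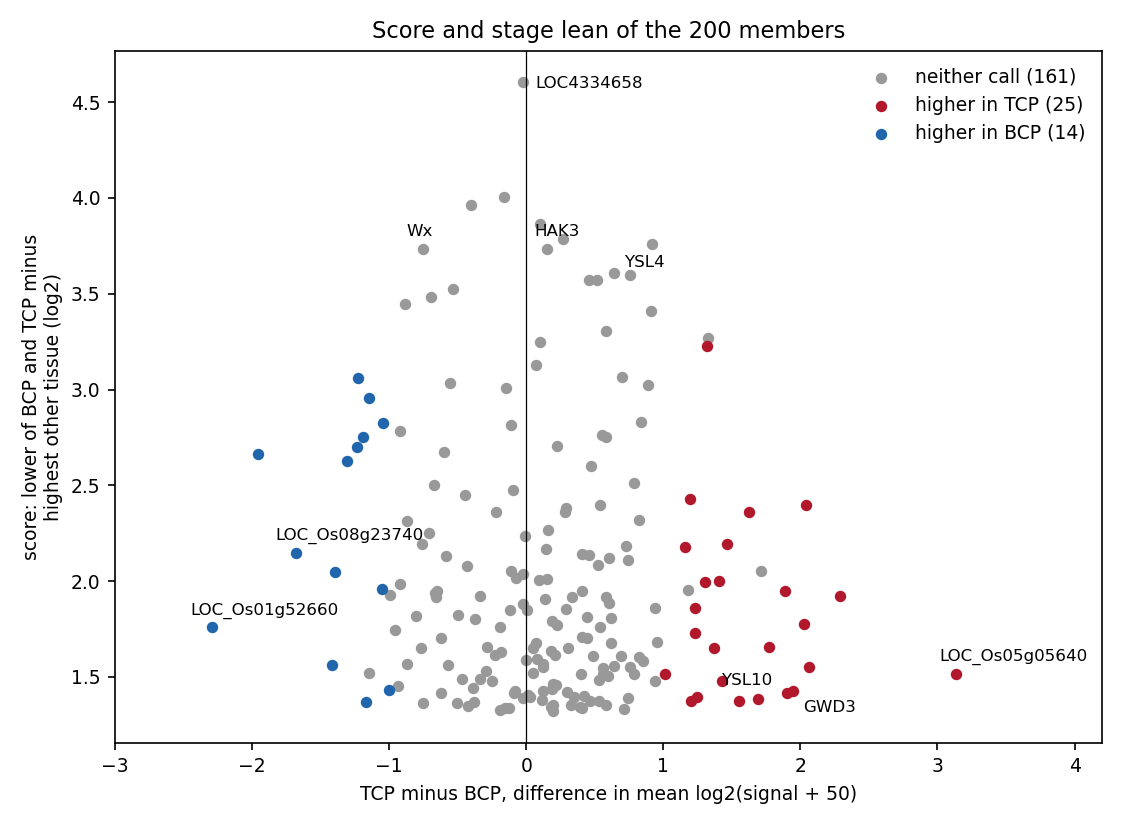
Each point is 1 of the 200 members, with the TCP minus BCP difference in mean log2(signal + 50) on the horizontal axis and the score on the vertical axis, and colour gives the limma call (25 higher in TCP, 14 higher in BCP, 161 neither). The highest score, of LOC4334658, lies near 0 on the horizontal axis, and LOC_Os05g05640 lies farthest to the TCP side with a score of 1.52.

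Starch and sugar metabolism held 13 member probe sets of 9 genes. Wx, the granule-bound starch synthase that makes amylose, had 4 of them, with scores of 3.74, 3.45, 3.13 and 2.67. The first read 17279, 15836 and 12988 in BCP and 9943, 9533 and 7813 in TCP, against 834, 483 and 626 in UNMs and 317, 436 and 431 in MPGs. Every BCP array was above every TCP array on it, but the log2 difference of -0.75 ± 0.35, adjusted p = 0.12, did not reach the call. Here and after, ± gives the standard error of the log2 difference from the fit, with 3 arrays in each tissue. On the other 3 Wx probe sets the difference was -0.89, 0.07 and -0.60, also without a call. After germination Wx was lower still. On the 4 probe sets the change from MPGs to GPGs was -1.75, -1.52, -1.92 and -1.67, each past the call in the comparison of GPGs with MPGs given further on. A pair of other Wx probe sets did not follow: their mean signals stayed at or under 43.8 and 173 in BCP and TCP.

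Genes of glucan breakdown were among the members too. MEX1, which in Arabidopsis exports maltose from the plastid, read 16302, 16928 and 16175 in BCP and 29759, 27398 and 30298 in TCP, 763, 656 and 742 in UNMs and 3249.9, 3058 and 3479 in MPGs. All TCP arrays exceeded all BCP arrays, at 0.82 ± 0.22, adjusted p = 0.0073, which is short of 2-fold. GWD3, a phosphoglucan water dikinase that in Arabidopsis primes starch for degradation, leaned to TCP. Its BCP arrays gave 5282, 5846 and 5375 and its TCP arrays 21534, 18727 and 23910.2. The groups lay well apart (1.94 ± 0.21, adjusted p = 3.6e-07, or 3.85-fold). The debranching enzyme LOC_Os09g29404, whose Arabidopsis homolog is ISA3, read 12243, 11789 and 11594 in BCP and 28738, 27366 and 26091 in TCP (1.20 ± 0.20, adjusted p = 5.4e-05). LOC_Os04g45290, a vacuolar invertase that splits sucrose, was measured by both member probe sets as 12485, 13551 and 10618 and 2825, 3585 and 3874 in BCP and 27219, 36655 and 27163 and 7311, 7538 and 8471 in TCP. The first of these passed the call (1.30 ± 0.37, adjusted p = 0.01) and the second did not (1.18 ± 0.52, adjusted p = 0.1).

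The remaining members of the group had no call. The LSF2 homolog LOC_Os12g02120, a glucan phosphatase in Arabidopsis, differed by 0.18 and the LESV homolog LOC_Os11g37560, a starch granule protein there, by -0.80. LOC_Os10g22450, whose Arabidopsis homolog makes inositol phosphate, gave 14134, 18391 and 20532 in BCP and 33198, 25945 and 35215 in TCP, an excess in TCP of 0.83 that stayed under 2-fold. UGE-4, a UDP-glucose epimerase, gave 0.39. Over the group 3 of 13 were higher in TCP and 0 in BCP, and the median difference was 0.39. Under the RefSeq names of starch enzymes the array holds 21 probe sets for 13 symbols, a list put together after the values were known. Beyond the 6 members of it 2 had a score above 0, at most 0.14. Of the 20 tested, 2 were called higher in TCP and 2 in BCP.

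**Figure D3:**
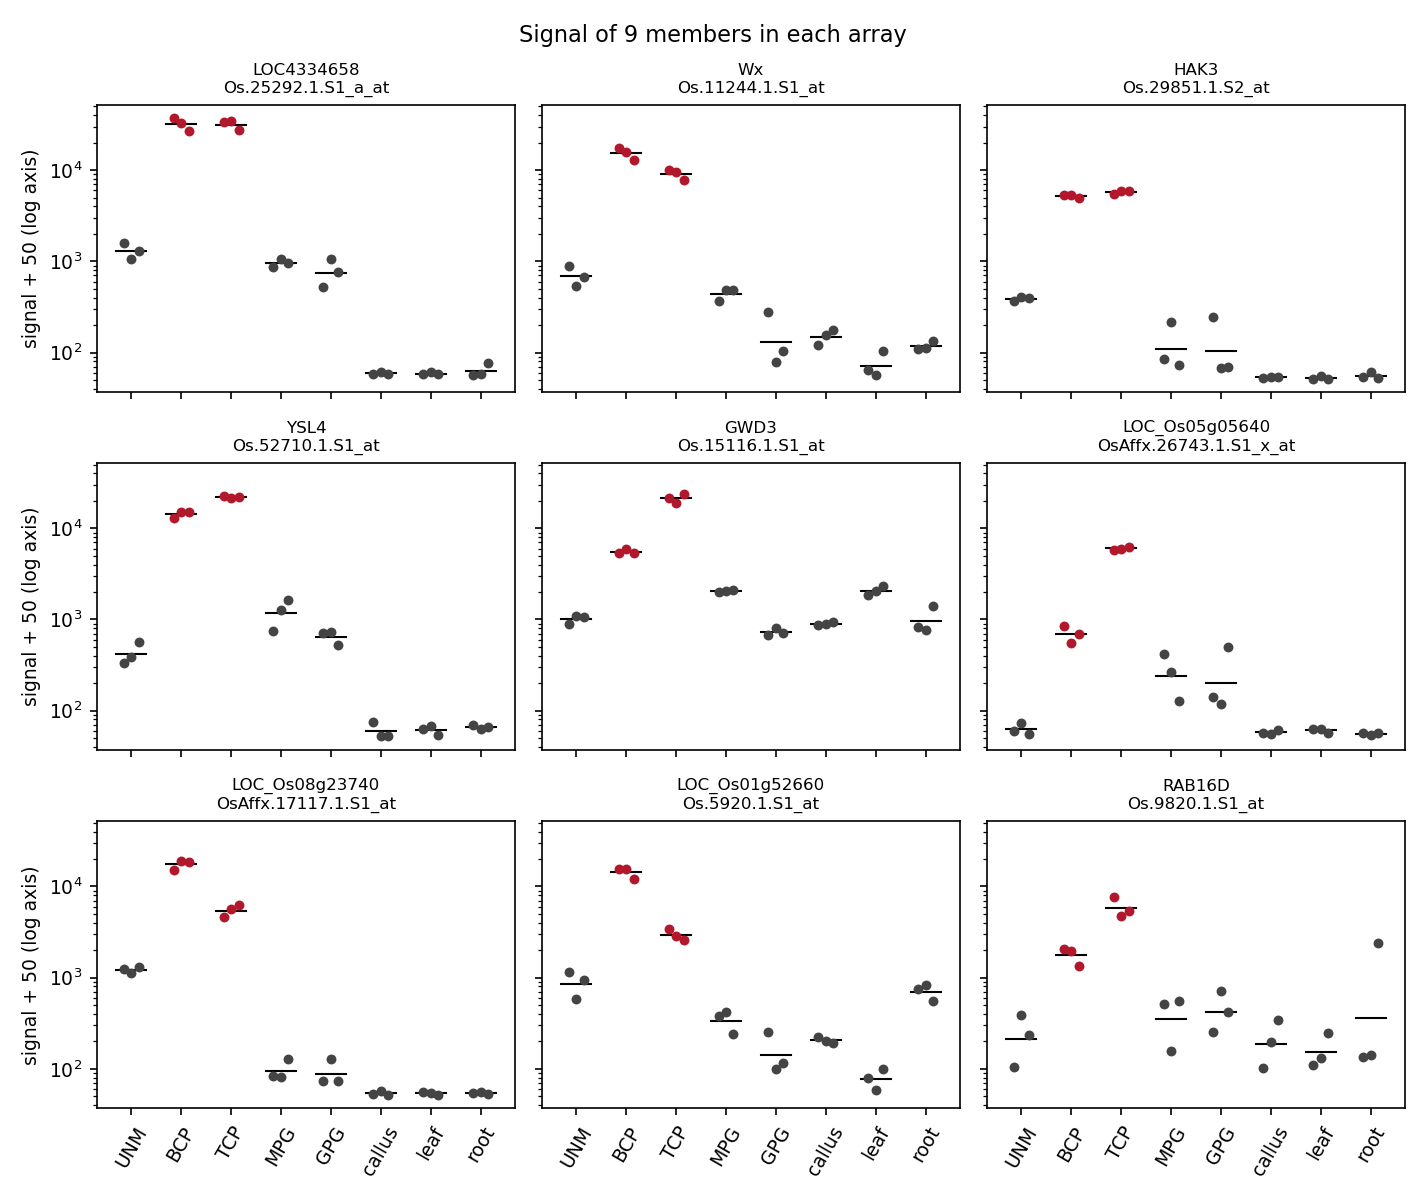
Signal + 50 on a log axis in each of the 3 arrays of 8 tissues for 9 members, with red points for BCP and TCP, dark points for the other tissues and a line at the mean of the log2 values. LOC_Os08g23740 and LOC_Os01g52660 drop from BCP to TCP, GWD3 and LOC_Os05g05640 climb, Wx lies lower in TCP without a call, and in RAB16D 1 root array at 2362 stands above the BCP arrays.

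Transport held 13 members of 13 genes. The potassium transporter HAK3 had the highest score among them, 3.74. Its arrays read 5276, 5279 and 4872 in BCP and 5382, 5872 and 5851 in TCP. UNMs gave 316, 356 and 348, MPGs 35.2, 165 and 22.6, and no callus, leaf or root array passed 10.9. TCP exceeded BCP in every array, but by too little for a call (0.15 ± 0.38, adjusted p = 0.83). A second HAK3 probe set, which was no member, differed after TCP: its mean signals were 145 in UNMs, 2327 in BCP and 2240.3 in TCP, but 1255 in MPGs and 1209.5 in GPGs (score 0.86). HAK2, of the same family, had overlapping arrays, with 11028, 10565 and 9861 in BCP and 10502, 10938 and 10299 in TCP, but kept 4063, 4051 and 3686 in UNMs. In the HAK family as RefSeq names it there were 29 probe sets for 22 symbols, 3 more of them with a score above 0 (at most 1.22) and 18 with their highest mean in callus, leaf or root.

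YSL4 belongs to the yellow stripe-like family, which in grasses carries iron and other metals bound to phytosiderophores or nicotianamine. It read 12788, 14948 and 14909 in BCP and 22664, 21496 and 22141 in TCP, then 700.0, 1234 and 1601 in MPGs and 657, 687 and 475 in GPGs. TCP was above BCP in every array, by 0.64 ± 0.26, adjusted p = 0.08. LOC_Os05g16280, similar to Arabidopsis YSL7 and numbered next to YSL4 among the rice loci, was a member as well, with a difference of 0.52. YSL10 leaned to TCP, with 766, 1096 and 641 in BCP and 3123, 3648 and 2834 in TCP, a 3.74-fold difference (1.90 ± 0.35, adjusted p = 0.00025). It is among the pair of named members absent from the shortened copy of the study's table that were called. By RefSeq name there were 16 YSL probe sets for 15 symbols, and that of LOC_Os05g16280 was not among them. Of the 16 none beyond the 2 members YSL4 and YSL10 had a score above 0, and 7 were highest in callus, leaf or root.

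Of the other 8 transporters 2 were higher in TCP, 1 was higher in BCP and 5 had no call. LOC_Os05g40650, a CHX15-like cation/proton exchanger, read 5053, 5366 and 5283 in BCP and 13198, 13567 and 17009 in TCP (1.46 ± 0.38, adjusted p = 0.0049). The purine permease LOC_Os04g49739 gave 6973, 8248 and 8429.6 and 17782, 15993 and 19117 (1.16 ± 0.27, adjusted p = 0.0023). In the other direction LOC_Os05g02870, an ABC transporter near Arabidopsis ABCG16, fell from 1902, 1679 and 1702 in BCP to 763, 645 and 639.8 in TCP (-1.31 ± 0.48, adjusted p = 0.045). LOC_Os05g25550, homologous to the Arabidopsis proton pump AHA8, did not pass (-0.25), and was high in BCP, at 14663, 14525 and 13346, with 4268, 4345 and 4094 in UNMs and 56.3, 388 and 337 in MPGs. The mitochondrial channel VDAC3 (-0.08), a zinc transporter, LOC_Os08g36420 (0.03), and nucleotide sugar transporter homologs LOC_Os06g08860 and LOC_Os12g05830 had no call either. Over the group 3 members were higher in TCP and 1 in BCP, with a median difference of 0.15.

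Cell wall genes gave 6 members of 4 genes. LOC_Os08g23790, of a polygalacturonase family whose enzymes cut pectin, ranked 3 by score. It read 22832, 17794 and 16535 in BCP, 15187, 13725 and 13790.3 in TCP and 627, 1110.0 and 922 in UNMs, and had no call between stages (-0.41 ± 0.32, adjusted p = 0.41). LOC_Os05g05640, a pectinesterase inhibitor, was the most TCP-leaning of all members. Its 3 member probe sets gave 9585, 8948 and 8211, then 4599, 4269.8 and 3857, and 795, 505 and 645 in BCP. The corresponding TCP signals were 33774, 25707 and 24223, then 18405, 15507 and 13724, and 5775, 5943 and 6247. TCP was higher on each, by 3.09-fold, 3.69-fold and 8.77-fold, and the third had 3.13 ± 0.41, adjusted p = 3.5e-06. A further probe set of this gene, which was no member, stayed at means of 37.3 in BCP and 227 in TCP. The third was also 1 of the 3 TCP calls that remained with the poly-A controls.

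The xylosyltransferase LOC_Os01g10440, of an enzyme class that builds wall polysaccharides, was higher in TCP as well, at 8831, 11234 and 14277 against 2701, 4349.8 and 3487 (1.69 ± 0.37, adjusted p = 0.0013). LOC_Os01g52660, described as a pistil-specific extensin-like protein, was the most BCP-leaning member. It dropped from 15679.7, 15336 and 12133 in BCP to 3337, 2823 and 2508 in TCP, 4.91-fold (-2.30 ± 0.33, adjusted p = 1.3e-05), and stood at 1115, 539 and 883 in UNMs and 709, 772 and 501 in root. Of the 6 cell wall members 4 were higher in TCP and 1 in BCP, and 5 of the 6 came from the study's stage table.

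Among 6 lipid and hormone genes was KAO, the ent-kaurenoic acid oxidase of gibberellin synthesis. It gave 33191, 32810.1 and 25234 in BCP and 40405, 44139.6 and 39022 in TCP, and remained at 6773, 6327 and 10875 in MPGs and 7833, 9182 and 8687 in GPGs. The difference of 0.45 between the stages was not called. LOC_Os05g08540, a homolog of the Arabidopsis GA3OX3 that makes bioactive gibberellin, did not differ past the call (0.11). LOC_Os07g07870, a lipid binding protein, leaned to TCP at 5364, 5102 and 4726 against 1427, 1193 and 1023 (2.03 ± 0.43, adjusted p = 0.00099). LOC_Os07g43460, a SUR2-type sphingoid base hydroxylase, did too, at 4756, 4199.9 and 5005 against 1213, 1855 and 1658 (1.55 ± 0.34, adjusted p = 0.0013). SFR2, which remodels galactolipids in Arabidopsis under freezing, and a DGK5-like diacylglycerol kinase, LOC_Os08g08110, had differences of 0.23 and 0.14. A further pair of SFR2 probe sets, which were no members, had scores of only 0.42 and 0.38. The second had means of 1392 in BCP and 1051 in leaf. The array names 15 probe sets for gibberellin synthesis, of which 1 besides KAO had a score above 0 (1.24) and 7 were highest in MPGs or GPGs.

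None of the 8 probe sets of 7 genes for transcription, chromatin and RNA was called in either direction, and their differences ran from -0.62 to 0.85. The first of these values is that of LOC_Os06g11970, a MADS-box gene near Arabidopsis AGL66, which acts in pollen maturation there. Its signals were 10037, 9075 and 8969 in BCP, 6335, 5349 and 6542 in TCP, 979, 802 and 876 in UNMs and 2109, 1441 and 1999 in MPGs. C3H6, a CCCH zinc finger protein, had scores of 2.40 and 1.58 on a pair of probe sets. The first gave 5737, 6777 and 6353 in BCP and 7935, 9839.5 and 9730.1 in TCP, over a level near 992, 1137 and 945 in UNMs that leaf and callus shared, and fell to 277, 71.0 and 417 in GPGs. The nuclear factor Y subunit NFYC6 (0.05), the tubby-like TLP11 (0.19), a MYB-like factor, LOC_Os01g62660 (0.73), an ATXR6-like histone methyltransferase, LOC_Os01g73460 (0.56), and a Pumilio homolog, LOC_Os12g31000 (-0.44), which in animals and plants bind RNA, completed the group.

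Proteolysis and signalling held 6 members of 5 genes. The subtilisin-like protease LOC_Os08g23740 leaned to BCP on both probe sets. The first read 15212, 18806 and 18404 in BCP, 4561, 5552 and 6183 in TCP, 1199, 1073 and 1268 in UNMs and only 32.8, 32.1 and 77.8 in MPGs. The drop was 3.21-fold (-1.68 ± 0.23, adjusted p = 6.7e-06), and 2.63-fold on the second (-1.40 ± 0.33, adjusted p = 0.0028). An F-box protein, LOC_Os10g06700, of a class that selects proteins for degradation, went the other way, from 2618, 2178 and 2611 to 6844, 6864 and 6403 (1.43 ± 0.31, adjusted p = 0.0011). LOC_Os01g14926 resembles ANX2, a receptor kinase that keeps the Arabidopsis pollen tube intact. It gave 1732, 1348 and 1197 in BCP and 2789.5, 2154 and 2503 in TCP, without a call (0.79 ± 0.35, adjusted p = 0.1), and at most 11.3 in UNMs. LOC_Os01g57230, of the NPH3 family, and LOC_Os10g28970, a BTB/MATH homolog, differed by -0.87 and 0.09.

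Of 3 genes for secretion and the cytoskeleton 1 was called. LOC_Os01g74510, near the actin-binding NET2D of Arabidopsis pollen, gave 2287, 4578 and 3527 in BCP and 6625, 7995 and 9595 in TCP (1.25 ± 0.30, adjusted p = 0.0029). It is the second named member absent from the shortened copy of the study's table that was called. The exocyst homolog LOC_Os11g05880, EXO70A1-like, differed by 0.22 and the Rab GTPase activator homolog LOC_Os02g56570 by 0.94. A pair of other probe sets of LOC_Os02g56570 did not follow, with scores of -1.86 and -1.32. The first of them had means of 257 in BCP, 519 in TCP and 1085 in MPGs. The 4 other metabolic genes lay closest to no difference, between -0.20 and 0.14. They were BGLU38, a beta-glucosidase, ADC1, an arginine decarboxylase of polyamine synthesis, a Nudix hydrolase, LOC_Os05g02640, and LOC_Os12g31820.

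Among 5 stress and redox genes LOC_Os12g36630, described as a universal stress protein of the Fb19 type, was higher in BCP, at 26327, 25895 and 18873 against 12736, 8297 and 9407 (-1.23 ± 0.30, adjusted p = 0.0035). RAB16D, a dehydrin induced by abscisic acid and drying, is the only member whose BCP and TCP arrays did not all exceed the rest. It read 2009, 1890.4 and 1300.2 in BCP, 7568, 4669 and 5265 in TCP and 86.3, 93.1 and 2362 in root. TCP was 3.28-fold above BCP without overlap, but the fit that pools the spread of all tissues gave 1.72 ± 0.80, adjusted p = 0.12. With only the BCP and TCP arrays the adjusted p was 0.0037. LOC_Os03g59440, a dirigent-like disease response protein, had the same root array high. Its signals were 23901, 20733 and 18597 in BCP, 58994, 60391 and 40916 in TCP and 131, 148 and 5355 in root (1.33 ± 0.76, adjusted p = 0.23), and with BCP and TCP arrays alone the adjusted p was 0.006. In 4 members the third root array was at least 4-fold above both other root arrays, in none were the first or the second, and over all probe sets the share for the third was 0.498%. The other pair of these 4 were the probe sets of the vacuolar invertase. LOC_Os01g62860, an aldo-keto reductase homolog, had a TCP minus BCP difference of -0.08 and no call.

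APX2, an ascorbate peroxidase that removes hydrogen peroxide, was measured by several probe sets that differed in pattern. The member read 2100.4, 1934 and 1784 in BCP and 1168, 903 and 872 in TCP, with 100.2, 125 and 222 in UNMs. Another of its probe sets had means of 32650 in BCP and 34132 in TCP, but 15119 in root, for a score of 1.11. Still another had 33281 in BCP, 51806 in TCP and 19119 in root. Of the member genes 24 had a further probe set that was no member, 30 in all, and 13 of these (43.3%) had a score above 0, against 3.18% of all probe sets. 27 members carried the suffix _x_at, with which the array's maker marks probes that can also bind other transcripts, and 7 carried _s_at.

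Of the 39 members with a lean, 20 had no role here. The most TCP-leaning of these was a probe set with no RefSeq gene, at 2.29, and the most BCP-leaning was LOC4341877 at -1.96. The latter read 14469, 15736 and 11882 in BCP and 3779, 3574 and 3315 in TCP. LOC4341876, the gene next to it on chromosome 6 of the RefSeq assembly ASM3414082v1, was a BCP-leaning member too, through a probe set with the suffix _s_at. Another probe set of LOC4341876 scored -1.49, with means of 25.9 in BCP and 51.7 in TCP. A second such pair, LOC4334521 (the dirigent-like LOC_Os03g59440) and LOC4334522, lay on chromosome 3. Of the 153 array genes that neighbour a member gene 4 were members (2.61%), against 0.71% of all 17736 RefSeq genes on the array. These 4 are the genes of the 2 pairs above, each counted as the neighbour of the other, and clustering was not tested.

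The tissues on either side of the interval were compared next, MPGs with UNMs. Of the members 37 (18.5%) were higher in MPGs, against 39.5% of all probe sets, and 57 (28.5%) were higher in UNMs, against 20.6%. The median difference was -0.20 for members and 0.73 for all. The rule kept both tissues below BCP and TCP without scoring the difference between them, so these shares too are description. Of the 25 TCP-leaning members 17 were higher in MPGs and 0 in UNMs. Of the 14 BCP-leaning members 0 were higher in MPGs and 5 in UNMs, and of the 161 with no lean 20 and 52. The medians of MPGs minus UNMs were 1.82 in the TCP-leaning members, -0.46 in the BCP-leaning members and -0.38 in those with no lean. On this measure the BCP-leaning members thus lay close to those with no lean. These comparisons share no array. Over the 200 members the TCP minus BCP and MPG minus UNM differences had a Pearson r of 0.56 and a Spearman rho of 0.55, given as description. Neither the counts by lean nor these correlations were taken over all probe sets. Whether the link is particular to the members was therefore not tested.

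Single members lay on either side of UNMs. MEX1 kept 3249.9, 3058 and 3479 in MPGs over 763, 656 and 742 in UNMs, 4.30-fold (2.10 ± 0.22, adjusted p = 4.9e-08). That difference depended on the scaling: it was 2.37 with quantile normalization, 0.79 and no longer called with equal medians, and -0.31 and -0.33, without a call, with the hybridisation and poly-A controls. Its standard error was 0.62 with the poly-A controls. The subtilisin LOC_Os08g23740 had 1199, 1073 and 1268 in UNMs and 32.8, 32.1 and 77.8 in MPGs, 12.9-fold lower (-3.69 ± 0.23, adjusted p = 1.1e-11). The proton pump homolog LOC_Os05g25550 dropped 16.3-fold (-4.03 ± 0.54, adjusted p = 1.5e-06). Both of these calls remained under the 4 scalings. Calls in this comparison moved with the scaling, as did the median of all probe sets, from 0.73 to -0.12, -0.80 and -0.59 in the same order. With equal medians 10 members were higher in MPGs and 124 in UNMs, with the hybridisation controls 2 and 161, and with the poly-A controls 2 and 144. The order of the groups stayed: with the hybridisation controls the medians were -0.19 for TCP-leaning and -2.60 for BCP-leaning members, and with the poly-A controls -0.11 and -2.50. Members with no lean had -2.50 and -2.47 under these scalings, near the BCP-leaning members.

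**Figure D4:**
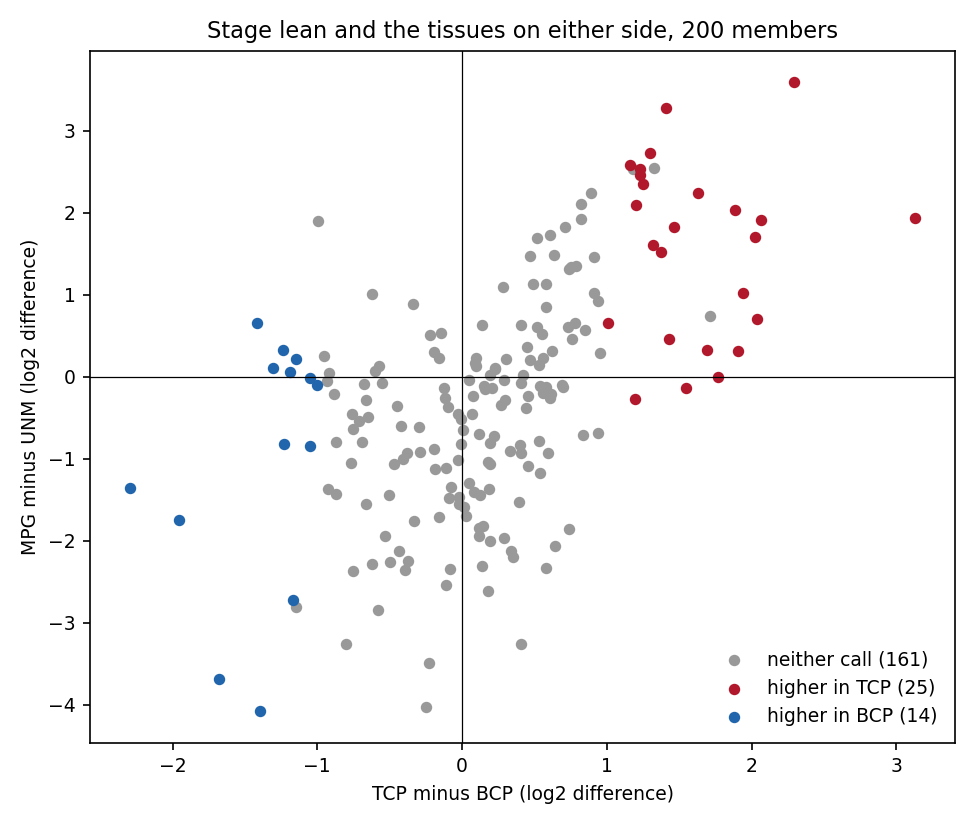
Each point is 1 of the 200 members, with the TCP minus BCP log2 difference on the horizontal axis and the MPG minus UNM log2 difference on the vertical axis, coloured by the TCP minus BCP call. TCP-leaning members have a median MPG minus UNM difference of 1.82, BCP-leaning members one of -0.46 and members with neither call one of -0.38.

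Germination was the last comparison. From MPGs to GPGs 35 members (17.5%) were lower, against 4.67% of all probe sets, and 1 (0.5%) was higher, against 3.00%. The median change was -0.48 in the members and -0.04 in all, and 152 members lay below 0. The rule kept both tissues below BCP and TCP without scoring the difference between them, so these shares are description only. The background includes probe sets that were dim in both tissues. The 35 included all 4 Wx probe sets, both of C3H6, GWD3, 1 invertase probe set (-1.25), BGLU38 (-1.84), ADC1 (-1.63) and the purine permease LOC_Os04g49739 (-1.89). GWD3 read 1935, 1987 and 2066 in MPGs and 628, 748 and 654 in GPGs, with no overlap. The 1 that rose had no RefSeq gene and went from 37.2, 34.0 and 44.2 to 292, 267 and 83.5. HAK3 (-0.07) and KAO (0.14) had no call. The number lower in GPGs was 18 with equal medians, 9 with the hybridisation controls and 0 with the poly-A controls, whose level differed widely between the 3 MPG arrays. With only the GPG and MPG arrays in the fit no member was called in limma, the smallest adjusted p being 0.31, and 35 were lower at least 2-fold with an unadjusted p under 0.05.

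**Figure D5:**
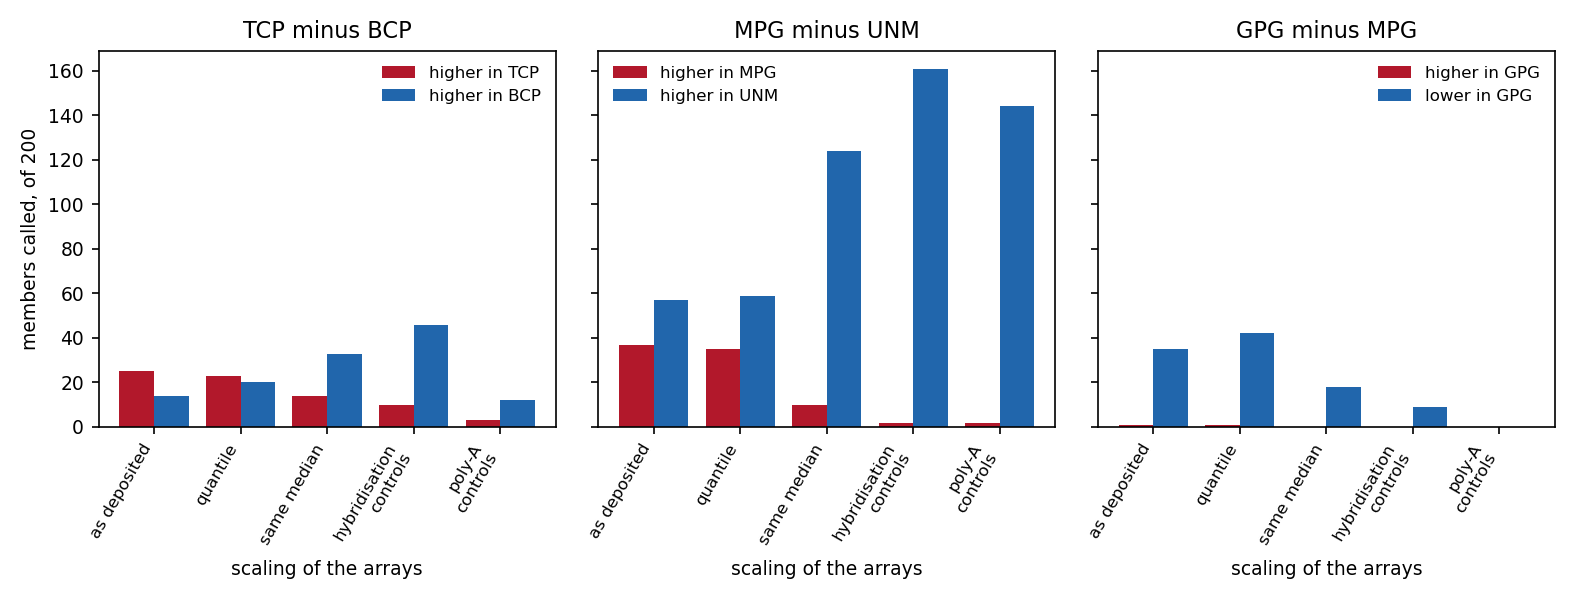
Bars give the number of the 200 members called in each direction for TCP minus BCP, MPG minus UNM and GPG minus MPG, under the deposited scaling and 4 others. The 25 against 14 members of the first comparison turn to 10 against 46 with the hybridisation controls, and the 35 members lower in GPGs turn to 0 with the poly-A controls.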

How the data were processed

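Per the labels and the study's methods, the authors scanned 24 Affymetrix rice arrays, took a signal per probe set with GCOS and the MAS5 method (versions not given in the sources used here) and scaled each array to a common mean. The deposited values are signal intensities on a linear scale. The table holds 57381 probe sets, and 123 controls of the array were left out of the scores and tests and served only for the control scalings. All 24 columns were matched to samples by their labels. The study describes its replicates as independent biological replicates. The number of arrays, 3 a tissue, limits the precision.

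The score was computed on means of log2(signal + 50). Tests used limma 3.58.1 in R 4.3.3 (lmFit and eBayes, two-sided) with a mean for each tissue and 1 residual spread from all 24 arrays, on the 47589 probe sets with a signal of at least 100 in at least 3 arrays. P-values were Benjamini-Hochberg adjusted over all of them, values after ± are standard errors, and differences without a unit are on the log2(signal + 50) scale, which understates changes of dim probe sets. On simulated data for TCP minus BCP over 47589 probe sets, the fit called 30% of 100 changes of 1.5 (log2) and 73% of 100 changes of 3, and 4 unchanged probe sets. The simulation changed only 200 probe sets, drawn at random, and set BCP and TCP equal in the rest. In the data 4874 and 6138 were called, so the adjusted threshold was less strict there. The simulated shares do not give the sensitivity for the members. Python 3.11.15, numpy 2.4.6, pandas 2.3.3 and matplotlib 3.10.9 did the rest.

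The members, functional groups and gene lists were chosen with earlier results of these data known, and roles were assigned after the list of members had been seen. Named members are, among those with a role, the 12 highest scores, up to 10 each of the most TCP-leaning and BCP-leaning members with a call, and up to 3 per group, and also, whatever their role, those around the cut. The others were added after their values were seen. Gene names come from RefSeq (22436 probe sets match 1 gene) and loci from the study's supplementary tables, of which 817, 899 and 2972 rows of shortened tables were used. Alternatives covered the offset, the filter, 4 scalings, the fit and each left-out array. Promoter sequences were not analysed here.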

Additional observations from a re-analysis of the deposited data

How the results depend on the processing

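The number of members retained and the counts of calls stayed within 1.5 times of their value under the other offsets, filter, scalings and fits, except as follows. Rescaling to the hybridisation controls left 89 and to the poly-A controls 107 of the 200 members among the highest scores, and leaving out 1 array left 192 to 200. Members higher in TCP numbered 25, and 14, 10 and 3 with equal medians, hybridisation controls and poly-A controls (21 to 27 with 1 array left out). Members higher in BCP numbered 14, and 9 with an offset of 16, 33 with equal medians and 46 with the hybridisation controls (10 to 13). Members higher in MPGs than UNMs numbered 37, and 10, 2 and 2 with those 3 scalings (33 to 37). Members higher in UNMs numbered 57, and 124, 161 and 144 (54 to 62). Members lower in GPGs numbered 35, and 18, 9 and 0, and 0 with only the compared arrays (35 to 41). The 1 member higher in GPGs became 0 under each of these 4 settings (0 to 2). In limma without adjustment, at p under 0.05 and 2-fold, 9 were lower and 1 higher with the poly-A controls, and 35 and 1 with the compared arrays. The cause of these moves was not tested.

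The replicate numbers did not pair the samples: same-numbered TCP and BCP arrays correlated at 0.08, -0.05 and 0.15 in their deviations from the tissue means. With the replicate block 25 members were higher in TCP and 15 in BCP, 37 higher in MPGs and 57 in UNMs, and 35 lower and 1 higher in GPGs.

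Of 1024 values of named members under the alternatives 37 lost the TCP and BCP call, 24 gained one and none reversed with a call. Dim signals near the offset of 50 carry little information, so differences among the 77 members under 100 in callus, leaf and root could not be resolved there.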
